A study of Mus musculus with 24 samples.

Results

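BCL2 family transcripts were followed in mouse tail fibroblasts of 4 cell-states, with and without proteasome inhibition. The family was taken as 10 named genes of the 19880 in the deposited expression table, found by gene symbol. These are 4 anti-death members (Bcl2, Bcl2l1, Bcl2l2 and Mcl1) and 6 pro-death members, of which Bak1 and Bok are effectors and Bcl2l11, Bid, Bad and Bmf are BH3-only genes. All fibroblasts came from 1 pool, grown from the tails of 3 male C57/Bl6 mice (C57BL/6J in the paper) aged 4 weeks. Each cell-state was derived from that pool: proliferating cells, senescent cells (serial passage), quiescent cells (contact inhibition) and immortalized cells carrying the SV40T antigen by retrovirus. Each was given either 0.1% DMSO, the vehicle, or 10 µM MG132, a proteasome inhibitor, for 8 h. This gave 8 groups of 3 libraries, 24 in all. Because every group descends from the same pool, the spread between the 3 libraries of a group is not a spread between animals, and it may be technical.

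BCL2 family proteins decide whether the outer mitochondrial membrane stays intact. The effectors open that membrane and release cytochrome c, the anti-death members hold the effectors and the BH3-only proteins in check, and the BH3-only proteins switch the pathway on by binding the anti-death members or the effectors. Several members are short-lived proteins cleared by the proteasome, MCL1 above all, so transcript and protein can move apart when the proteasome is blocked. Only transcripts were measured here.

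The promoters of 3 members are shown as examples, chosen for MG132 responses that kept their direction however the libraries were scaled. Bcl2l11 rose in 3 of 4 cell-states, with the largest rise of a member, and Bcl2l2 and Bak1 fell in the proliferating and immortalized cells. In quiescent cells the small difference of Bak1 changed sign with the scaling. The sequences are RefSeq promoter windows on GRCm38.p6, running 5′ to 3′ on the gene's strand from 250 bases before the transcription start to 50 bases from it onwards. Capitals mark the FOXO motif GTAAACA and the GC box GGGCGG on either strand.
Bcl2l11, chr2:128125788-128126087, plus strand: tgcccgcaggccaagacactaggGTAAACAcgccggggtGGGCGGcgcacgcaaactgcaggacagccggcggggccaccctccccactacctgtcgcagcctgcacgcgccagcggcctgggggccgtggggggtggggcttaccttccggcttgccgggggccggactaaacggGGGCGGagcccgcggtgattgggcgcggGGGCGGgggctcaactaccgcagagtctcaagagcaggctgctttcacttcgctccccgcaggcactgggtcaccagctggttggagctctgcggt
Bcl2l2, chr14:54883175-54883474, plus strand: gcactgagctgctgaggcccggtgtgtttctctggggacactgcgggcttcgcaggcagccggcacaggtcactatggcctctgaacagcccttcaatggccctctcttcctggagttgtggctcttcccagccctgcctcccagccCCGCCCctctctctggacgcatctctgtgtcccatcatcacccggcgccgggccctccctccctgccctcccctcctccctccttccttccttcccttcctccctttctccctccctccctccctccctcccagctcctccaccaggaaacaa
Bak1, chr17:27028578-27028877, minus strand: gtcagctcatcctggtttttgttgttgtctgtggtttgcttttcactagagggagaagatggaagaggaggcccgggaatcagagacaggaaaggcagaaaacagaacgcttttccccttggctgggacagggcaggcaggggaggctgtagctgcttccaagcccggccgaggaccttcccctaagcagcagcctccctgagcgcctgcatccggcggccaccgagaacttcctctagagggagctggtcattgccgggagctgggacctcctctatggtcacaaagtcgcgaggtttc
All 10 members had at least 1 window, 16 in all. Bcl2l11 has 2 windows, and the 1 shown holds 1 FOXO match, 227 bases before the start. The motif was found in 3.65% of all 32851 promoter windows. It was not in the other Bcl2l11 window, nor in any other member's window. GC boxes stand in 9 of the 16 windows, which belong to 8 members, and 35.7% of all windows hold one. The Bcl2l2 window has 1 of them and the Bak1 window none. The C/EBP-ATF element TTGCATCA, the CRE TGACGTCA and the AP-1 site TGANTCA, searched on both strands, were in none of the 16 windows, against 0.895%, 1.79% and 7.81% of all windows. The heat shock factor pair GAANNTTC stood in 1 window of Bad and in 7.86% of all windows, and the full heat shock element, which contains that pair and a further GAA unit, in no member's window and in 0.603% of all windows. A match is a stretch of letters, not a shown binding site.

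The deposited values are TPM (a length-corrected share of each library's transcripts, scaled to one fixed total), and every library summed to 1000000 with 16751 to 18161 genes above 0. Levels below are scaled TPM, the deposited TPM divided by a median-of-ratios factor for the library, and each log2 value is a difference of log2(scaled TPM + 1), which understates the change of low genes. A gene passed when its limma adjusted p, over 13489 tested genes, was under 0.05. The scaling mattered in the proliferating and immortalized cells: with TPM as deposited, the median gene moved by -0.48 and -0.57 on the log2 scale under MG132, and with the authors' scaling to a fixed total undone (below, the step undone) by -0.43 and -0.50, against -0.02 and 0.01 after the median-of-ratios scaling. In proliferating cells 3396 genes were higher and 3342 lower after scaling, but 1131 and 7182 as deposited, and in immortalized cells 3592 and 3593 became 1031 and 7626. The paper added spike-in RNA by cell number and normalized on it, to allow for differences in total transcription. Median-of-ratios scaling brings the median gene near 0, so it cannot show a shift shared by most genes. Whether undoing the step restores the spike-in scale was not tested. By its nearest library, 23 of 24 libraries lay closest to their own group. The exception was proliferating DMSO replicate 3, closest to a quiescent MG132 library. All 10 fibroblast markers were expressed, at a summed 14320 to 35870 TPM. The summed level of 6 cycling-cell markers was 82.6 to 246.7 TPM in quiescent DMSO libraries and 46.9 to 190.4 TPM in proliferating ones, so these cycling-cell markers did not set the quiescent label apart. The summed level of 5 cell-cycle arrest markers did, at 1539 to 1730 TPM in quiescent DMSO libraries and 1110 to 1176 TPM in proliferating ones. Under MG132 the arrest sums overlapped, at 940.9 to 1228 TPM in quiescent and 1037 to 1339 TPM in proliferating libraries. The skeletal muscle list reached 540.6 TPM in an immortalized MG132 library although 1 of its 3 measured markers never passed 0.559 TPM, and the leukocyte list was highest in senescent MG132 libraries, at 22.2 to 32.3 TPM. The part of these lists in the results was not tested.

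Of the 10 members 9 passed the filter of 1 TPM in at least 3 libraries, and Bmf did not. Under MG132, 6 of 9 passed the test in proliferating cells (50.0% of all genes tested), 5 in senescent cells (46.1% of all), 4 in quiescent cells (52.2%) and 7 in immortalized cells (53.3%). With 9 members these shares lie near those of all genes, so the count of members that changed is not a result about the family. By direction, senescent cells had 1 member higher and 4 lower (22.7% and 23.4% of all genes), and quiescent cells 4 higher and none lower (25.3% and 26.9%). Proliferating cells had 3 higher and 3 lower (25.2% and 24.8%), and immortalized cells 3 higher and 4 lower (26.6% and 26.6%). The median member moved by -0.12 in proliferating cells, -0.17 in senescent cells, 0.34 in quiescent cells and -0.32 in immortalized cells, beside -0.02, -0.03, -0.02 and 0.01 for all genes. Of the 22 passed tests among 36, 17 passed with 1 sign under all 3 scalings.

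**Figure D1:**
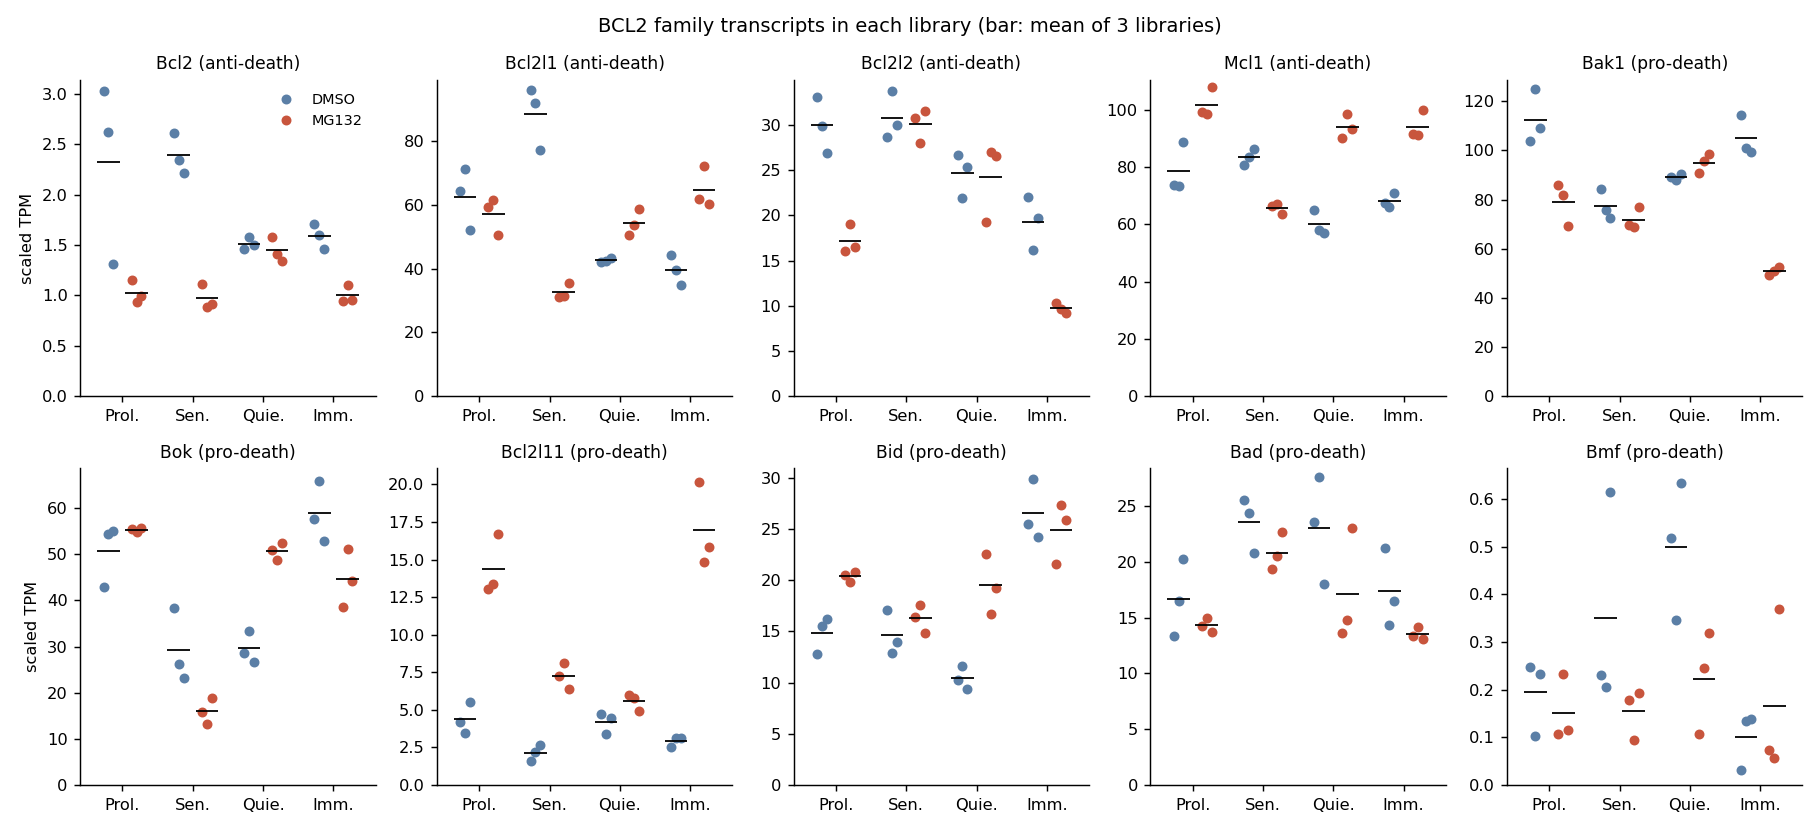
Scaled TPM (y axis, from 0) of the 10 members in each of the 24 libraries, by cell-state (Prol., proliferating; Sen., senescent; Quie., quiescent; Imm., immortalized) and treatment; points are libraries and bars are means of 3. Bcl2l11 under MG132 stands above every DMSO library in the proliferating, senescent and immortalized cells, and Bcl2l1 in senescent cells falls from a mean of 88.5 to 32.6.

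Bcl2l11 encodes BIM, a BH3-only activator that binds every anti-death member (chromosome 2, 128126038 to 128162547, plus strand). In proliferating cells it was at 4.20, 3.47 and 5.50 scaled TPM under DMSO and at 13.1, 13.4 and 16.7 under MG132. In immortalized cells the DMSO libraries were at 2.53, 3.12 and 3.12 and the MG132 libraries at 20.1, 14.8 and 15.9. In senescent cells they were at 1.60, 2.19 and 2.67 and at 7.26, 8.14 and 6.41. The treated and untreated libraries did not overlap in any of these states, and Bcl2l11 rose by 1.52 ± 0.16 on the log2 scale in proliferating cells (SE, n = 3 and 3, limma adjusted p = 4.8e-07), by 2.19 ± 0.16 in immortalized cells (limma adjusted p = 1.6e-09) and by 1.40 ± 0.16 in senescent cells (limma adjusted p = 1.3e-06). All 3 rises passed under every scaling, with the smallest at 0.98, in proliferating cells with TPM as deposited. Without proliferating DMSO replicate 3 the proliferating rise was 1.67. Quiescent cells were the exception in level. Their DMSO libraries were at 4.70, 3.38 and 4.43 and their MG132 libraries at 5.98, 5.80 and 4.93, apart but close, with a difference of 0.35 ± 0.16 that did not pass (limma adjusted p = 0.079). In bulk RNA a level set by fewer expressing cells and one set by less RNA per cell cannot be told apart.

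Bid encodes the BH3-only protein that death-receptor caspases cleave into its active form (chromosome 6, minus strand). Its largest MG132 response was in quiescent cells. There the DMSO libraries held 10.2, 11.6 and 9.38 scaled TPM and the MG132 libraries 22.5, 16.7 and 19.2, a rise of 0.84 ± 0.13 with no overlap (limma adjusted p = 3.5e-05) that passed under every scaling. In proliferating cells Bid was at 12.7, 15.5 and 16.2 under DMSO and 20.5, 19.8 and 20.8 under MG132, a rise of 0.44 ± 0.13 (limma adjusted p = 0.0093) which rested on proliferating DMSO replicate 1 for its call and turned to -0.13 with TPM as deposited and -0.08 with the scaling step undone. The difference was 0.15 ± 0.13 in senescent cells and -0.09 ± 0.13 in immortalized cells, and neither passed, but in immortalized cells it was -0.83 with TPM as deposited and -0.74 with the step undone, both past the threshold (limma adjusted p = 2.8e-06 and 0.00013). Whether Bid changed in immortalized cells thus depended on the scaling.

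Bad encodes a BH3-only sensitizer that survival kinases hold inactive by phosphorylation (chromosome 19, plus strand). No MG132 response of Bad passed: the differences were -0.19, -0.17, -0.42 and -0.32 in proliferating, senescent, quiescent and immortalized cells, each with an SE of 0.18. All 4 were negative. With TPM as deposited the values were -0.75, -0.18, -0.60 and -1.04, of which all but the senescent one passed. With the step undone they were -0.70, -0.26, -0.51 and -0.95, and again all but the senescent one passed. Its groups overlapped with their neighbours all along the order of mean levels, from 23.6 scaled TPM in senescent DMSO libraries to 13.5 in immortalized MG132 libraries. Bmf, a BH3-only gene tied to the cytoskeleton (chromosome 2, minus strand), was barely detected. Its deposited TPM ran from 0.0342 to 0.807, and its values were whole multiples of a step for the gene (within 0.001), of which the libraries held 2 to 41. Its scaled group means were highest in quiescent DMSO libraries, at 0.499 ± 0.145 (SD, n = 3), and lowest in immortalized DMSO libraries, at 0.101 ± 0.061. Each group overlapped with its neighbour in that order.

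Bak1, an effector that sits on the mitochondrial membrane (chromosome 17, 27019810 to 27029009, minus strand), was among the most abundant members by TPM. Under DMSO and MG132 it was at 114.5, 101.0 and 99.3 and at 49.3, 51.1 and 52.5 scaled TPM in immortalized cells. Proliferating cells held 103.8, 125.0 and 109.0 under DMSO and 86.1, 81.8 and 69.4 under MG132. Both pairs of groups were apart, and Bak1 fell by 1.03 ± 0.09 on the log2 scale in immortalized cells (limma adjusted p = 2.7e-08) and by 0.51 ± 0.09 in proliferating cells (limma adjusted p = 0.00019). Both falls were larger with TPM as deposited, at -1.78 and -1.10. The difference was -0.11 ± 0.09 in senescent cells and 0.09 ± 0.09 in quiescent cells, the latter -0.10 with TPM as deposited, and neither passed.

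Bok, the BAK-like effector whose protein is cleared through ubiquitin (chromosome 1, 93685660 to 93695764, plus strand), moved in opposite directions in the quiescent and senescent cells. In quiescent cells it was at 28.6, 33.4 and 26.7 scaled TPM under DMSO and 51.0, 48.8 and 52.3 under MG132. In senescent cells it was at 38.3, 26.3 and 23.2 under DMSO and 15.8, 13.3 and 18.9 under MG132. Bok thus rose by 0.76 ± 0.16 in quiescent cells (limma adjusted p = 0.00055) and fell by 0.81 ± 0.16 in senescent cells (limma adjusted p = 0.00034), without overlap and under every scaling. In immortalized cells the fall was 0.40 ± 0.16 (limma adjusted p = 0.043), or -1.15 with TPM as deposited. In proliferating cells the difference was 0.13 ± 0.16 and did not pass, but it was -0.46 with TPM as deposited and -0.41 with the step undone, and both of those passed. The immortalized fall lost its call when any of 6 libraries was left out, among them immortalized DMSO replicates 1 and 2, immortalized MG132 replicates 1 and 3 and proliferating MG132 replicates 1 and 2.

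Bcl2l1 encodes BCL-XL, an anti-death protein that shields the mitochondrial membrane (chromosome 2, 152780668 to 152831728, minus strand). Its largest change was in senescent cells, where it was at 96.0, 92.1 and 77.3 scaled TPM under DMSO, above every other library in the series, and at 31.1, 31.4 and 35.4 under MG132. It fell there by 1.41 ± 0.12 on the log2 scale (limma adjusted p = 3.8e-08), and by 1.43 with TPM as deposited. In quiescent cells it went from 42.1, 42.5 and 43.3 to 50.7, 53.8 and 58.7, a rise of 0.34 ± 0.12 (limma adjusted p = 0.024) that did not pass under either other scaling (0.16 and 0.26), nor without quiescent DMSO replicate 1 or 2 or quiescent MG132 replicate 3. In immortalized cells it went from 44.3, 39.6 and 34.8 to 61.8, 72.1 and 60.2, a rise of 0.70 ± 0.12 (limma adjusted p = 7.1e-05), but the deposited means were 44.2 ± 5.0 TPM under DMSO and 42.3 ± 4.5 under MG132 (SD, n = 3), and the difference was -0.06 with TPM as deposited and 0.03 with the step undone. In proliferating cells the difference was -0.12 ± 0.12 and did not pass, against -0.71 and -0.66 under the other scalings, where it did. Only the senescent fall kept both its direction and its call in all of these settings.

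Mcl1, an anti-death gene whose protein turns over within a short time (chromosome 3, 95658788 to 95663176, plus strand), moved in opposite directions in the quiescent and senescent cells, as Bok did. In quiescent cells it was at 65.1, 58.0 and 57.0 scaled TPM under DMSO and at 90.2, 98.7 and 93.3 under MG132. In senescent cells it was at 80.8, 83.3 and 86.4 under DMSO and 66.3, 67.0 and 63.6 under MG132. Mcl1 rose by 0.64 ± 0.08 in quiescent cells (limma adjusted p = 4.6e-06) and fell by 0.34 ± 0.08 in senescent cells (limma adjusted p = 0.0023), with no overlap and under every scaling. In proliferating cells it rose by 0.37 ± 0.08 and in immortalized cells by 0.46 ± 0.08 (limma adjusted p = 0.0011 and 0.00012). Yet both reversed to -0.22 and -0.31 with TPM as deposited, which passed. With the step undone they were -0.17 and -0.21, which did not pass. The direction of Mcl1 in these 2 states was therefore set by the scaling.

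Bcl2l2 encodes BCL-W, an anti-death protein (chromosome 14, 54883377 to 54888234, plus strand). In immortalized cells it was at 22.0, 16.2 and 19.7 scaled TPM under DMSO and at 10.3, 9.64 and 9.25 under MG132. In proliferating cells it was at 33.1, 29.8 and 26.9 and at 16.1, 19.0 and 16.5. It fell in both, by 0.91 ± 0.13 and 0.76 ± 0.13 (limma adjusted p = 8e-06 and 7.7e-05), and by 1.61 and 1.33 with TPM as deposited. The differences in senescent and quiescent cells were -0.03 ± 0.13 in each, with treated and untreated libraries mixed. Bcl2, the founding anti-death gene (chromosome 1, 106538178 to 106714274, minus strand), was low in all libraries, at 0.595 to 3.58 deposited TPM. It fell by 0.78 ± 0.15 in senescent cells, 0.67 ± 0.15 in proliferating cells and 0.37 ± 0.15 in immortalized cells (limma adjusted p = 0.00021, 0.00075 and 0.038), and under every scaling in all 3. The difference in quiescent cells was -0.04 ± 0.15. The untreated proliferating libraries were spread for this gene, at 3.03, 2.62 and 1.31 scaled TPM, and the fall there was 0.92 without replicate 3. The immortalized fall lost its call without immortalized DMSO replicate 1 or 2 or immortalized MG132 replicate 1 or 3.

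**Figure D2:**
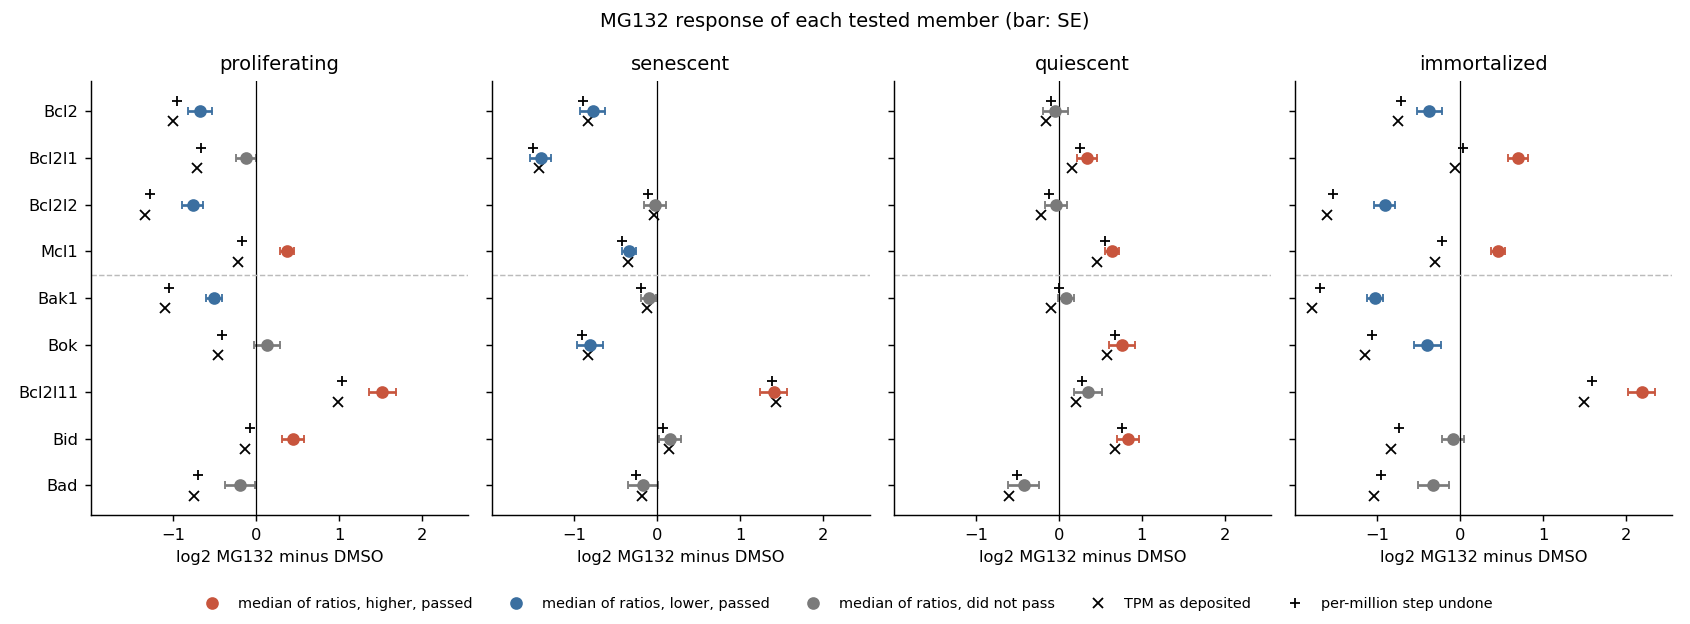
MG132 minus DMSO on the log2 scale (x axis) for the 9 tested members in each cell-state; circles with SE bars are the median-of-ratios scaling (red higher, blue lower, grey did not pass), crosses TPM as deposited and plus signs the scaling step undone. The symbols spread apart in proliferating and immortalized cells, where Mcl1 goes from 0.37 and 0.46 to -0.22 and -0.31, and lie close together in senescent and quiescent cells.

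The untreated cell-states were compared next, to see what each state carried before the inhibitor. Senescent cells had the most Bcl2l1, higher by 0.50 ± 0.12 than in proliferating cells (limma adjusted p = 0.0029), and Bcl2l11 lower than in proliferating cells by -0.77 ± 0.16 (limma adjusted p = 0.00093). Bak1 and Bok were lower as well, by -0.53 and -0.80, and Bad higher by 0.49. These were 5 of 9 members, against 40.8% of all genes, with 2 higher and 3 lower (21.0% and 19.8% of all genes), and all 5 passed under every scaling, although the difference of Bad lost its call without any 1 of proliferating DMSO replicates 1 and 2 or senescent DMSO replicates 1 and 2. Against immortalized cells the senescent cells stood furthest apart. All 4 anti-death members were lower in immortalized than in senescent cells, with Bcl2l1 at -1.14 ± 0.12 (limma adjusted p = 2.3e-07), Bcl2l2 at -0.65, Bcl2 at -0.39 and Mcl1 at -0.29, while Bok (1.01 ± 0.16, limma adjusted p = 2.1e-05), Bid (0.82) and Bak1 (0.43) were higher and Bad (-0.43) lower. That made 8 of 9 members where 60.1% of all genes passed, 3 higher and 5 lower (29.3% and 30.8%), and all 8 held under every scaling. Bcl2 and Bad were the weak calls among them, Bad having passed in only 9 of 24 fits with 1 library left out.

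Quiescent cells had less Bcl2l1 and Mcl1 than senescent cells, by -1.03 ± 0.12 and -0.47 ± 0.08 (limma adjusted p = 1.6e-06 and 0.0002), and more Bcl2l11, by 0.72 ± 0.16 (limma adjusted p = 0.0019). Bcl2 and Bid were lower too, at -0.43 and -0.45, which made 5 of 9 members against 39.1% of all genes, 1 higher and 4 lower (19.3% and 19.8%). The Bcl2 difference lost its call without any 1 of 5 of the 6 libraries compared, senescent DMSO replicate 3 being the exception, and the Bid difference without senescent DMSO replicate 1 or quiescent DMSO replicate 3. Against proliferating cells no member was higher and 5 were lower in quiescent cells (30.2% of all genes passed, 15.5% higher and 14.7% lower): Bok at -0.76, Bcl2l1 at -0.53, Bid at -0.47, Mcl1 at -0.38 and Bak1 at -0.33, of which Bak1 did not pass under either other scaling. Bad, 0.44 higher, did not pass with all libraries after scaling but did with TPM as deposited (0.57) and without proliferating DMSO replicate 3 (0.58), and Bcl2 went from -0.36 to -0.60 and passed without that library. Immortalized cells differed from proliferating ones in 4 members, 1 higher and 3 lower (35.7% of all genes, 18.0% higher and 17.7% lower), with Bid higher by 0.80 ± 0.13 (limma adjusted p = 0.00012) and Bcl2l1, Bcl2l2 and Bcl2l11 lower by -0.64, -0.61 and -0.45. The Bcl2l11 difference did not pass under either other scaling, nor without any 1 of 5 of the 6 libraries compared (-0.30 without proliferating DMSO replicate 3), while the Bcl2 difference, -0.32 with all libraries, became -0.56 and passed without proliferating DMSO replicate 3. Bid was the member that marked immortalized cells by level. Its DMSO libraries were at 25.5, 29.9 and 24.2 scaled TPM, above those of every other DMSO group, and 1.27 ± 0.13 higher than in quiescent cells on the log2 scale (limma adjusted p = 3.8e-07). Bok was 0.97 ± 0.16 higher and Bcl2l2 0.34 ± 0.13 lower in that last comparison, giving 3 of 9 members, 2 higher and 1 lower, against 50.2% of all genes (25.1% and 25.1%). That of Bcl2l2 did not pass with the step undone (-0.30).

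**Figure D3:**
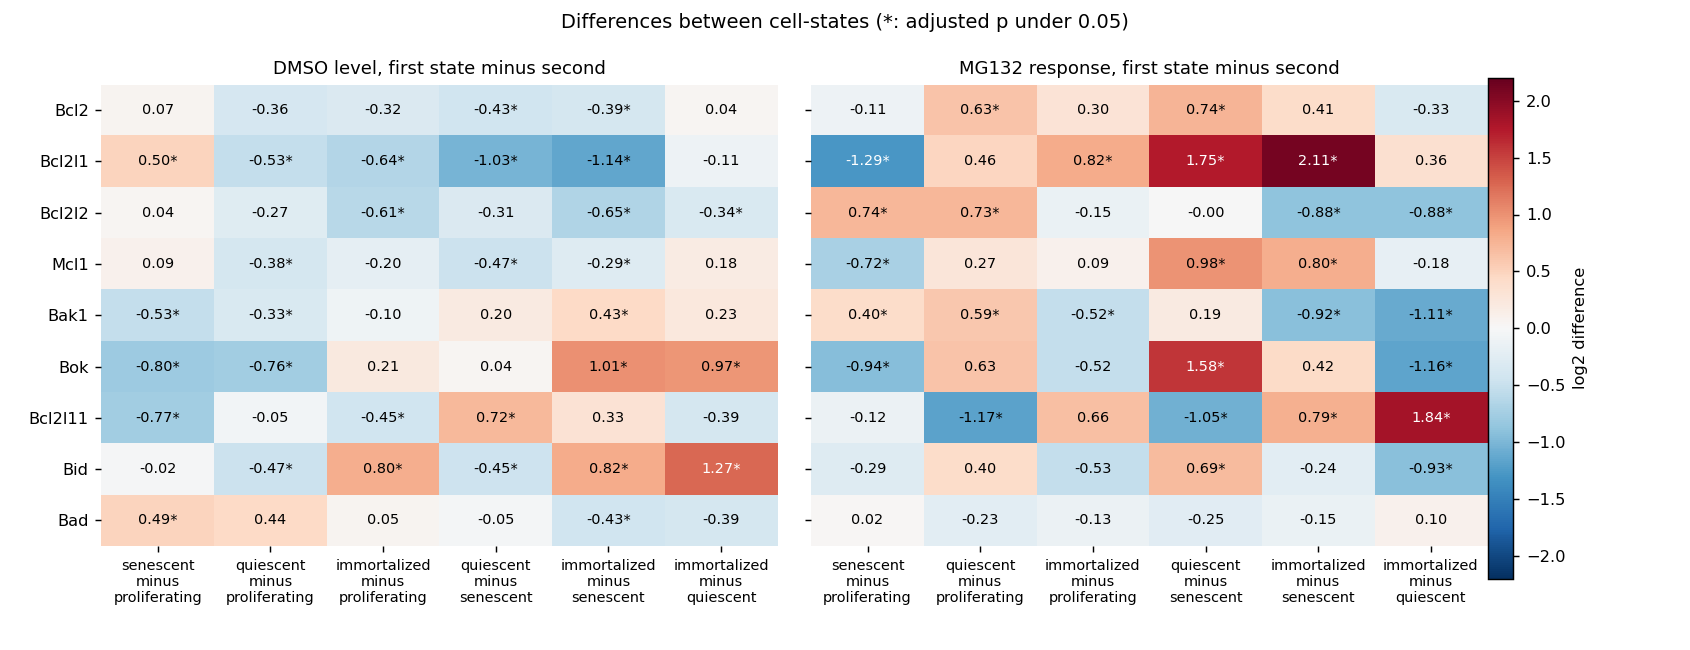
Log2 differences of the 9 tested members (rows) between cell-states (columns, first minus second), for DMSO levels on the left and for MG132 responses on the right; an asterisk marks an adjusted p under 0.05. After the median-of-ratios scaling shown here, the largest DMSO difference is that of Bid, 1.27 for immortalized minus quiescent. The largest difference of responses is that of Bcl2l1, 2.11 for immortalized minus senescent.

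Whether a response differed between states was tested as a difference of the 2 responses. After the median-of-ratios scaling the widest gap was that of Bcl2l1. Its response was 2.11 ± 0.17 higher in immortalized than in senescent cells (limma adjusted p = 1.3e-08). It was 1.75 ± 0.17 higher in quiescent than in senescent cells (limma adjusted p = 5.6e-07). Both passed under every scaling, but the first was 1.37 with TPM as deposited and 1.53 with the step undone. There the widest gaps were those of Bok for immortalized minus quiescent (-1.74, as deposited) and of Bcl2l1 for quiescent minus senescent (1.76, step undone). In immortalized against senescent cells 3 members were higher and 2 lower (38.5% of all genes passed, 18.8% higher and 19.6% lower), and in quiescent against senescent cells 5 were higher and 1 lower (20.4%, 11.2% and 9.19%). Bok and Mcl1 separated quiescent from senescent cells as well, by 1.58 ± 0.23 and 0.98 ± 0.12 (limma adjusted p = 4.9e-05 and 6.8e-06). The Bcl2l11 response in quiescent cells was 1.17 ± 0.23 below that of proliferating cells, 1.05 ± 0.23 below that of senescent cells and 1.84 ± 0.23 below that of immortalized cells (limma adjusted p = 0.0022, 0.003 and 7.3e-06), and each passed under every scaling. Its response did not pass as different between senescent and proliferating cells (-0.12 ± 0.23) or between immortalized and proliferating cells (0.66 ± 0.23), and the gap of 0.79 between immortalized and senescent cells shrank to 0.06 with TPM as deposited.

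The Bak1 response was lower in immortalized cells than in each other state: -1.11 ± 0.13 against quiescent, -0.92 ± 0.13 against senescent and -0.52 ± 0.13 against proliferating cells, all of which passed under every scaling. In quiescent against proliferating cells 3 members were higher and 1 lower (13.1% of all genes passed, 6.87% higher and 6.19% lower), and in senescent against proliferating cells 2 were higher and 3 lower (18.8%, 8.64% and 10.2%). Immortalized against proliferating cells had 1 higher and 1 lower (11.6%, 6.09% and 5.46%), and immortalized against quiescent cells 1 higher and 4 lower (31.2%, 15.6% and 15.6%). In quiescent against proliferating cells the count was 8 with TPM as deposited and with the step undone, and Bcl2, Bcl2l2 and Bak1 were higher there in all 3 scalings. The median gene also responded differently in these states, at -0.18 in quiescent and -0.48 in proliferating cells as deposited. With the step undone it was -0.10 and -0.43. No share of all genes is given for these 2 scalings, so the count of 8 is not a result about the family. The Mcl1 difference between senescent and proliferating cells, -0.72 ± 0.12, was -0.14 with TPM as deposited and did not pass, and the same held for Bok, at -0.94 ± 0.23 against -0.37. The 6 differences are not independent of each other, as each response enters 3 of them.

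Ratios within a library do not depend on the scaling. Mcl1 to Bcl2l11, the ratio of an anti-death transcript to a BH3-only transcript, was 18.3 ± 2.6 in proliferating DMSO libraries (SD, n = 3) and 7.13 ± 0.59 under MG132, 40.4 ± 9.3 and 9.09 ± 0.85 in senescent cells, and 23.6 ± 2.8 and 5.66 ± 0.97 in immortalized cells. In quiescent cells it was 14.6 ± 2.2 and 17.0 ± 1.9, with libraries overlapping between 15.1 and 17.2. Bcl2l2 to Bcl2l11 ran the widest course. In immortalized cells it went from 8.70, 5.20 and 6.32 under DMSO to 0.51, 0.65 and 0.58 under MG132, so that Bcl2l11 exceeded Bcl2l2 in TPM in these 3 libraries. The only other library with more Bcl2l11 than Bcl2l2 was proliferating MG132 replicate 3, at 0.988. Untreated senescent libraries had the highest Bcl2l1 to Bcl2l11 ratios, at 60.1, 42.1 and 29.0, and these dropped to 4.29, 3.85 and 5.52.

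**Figure D4:**
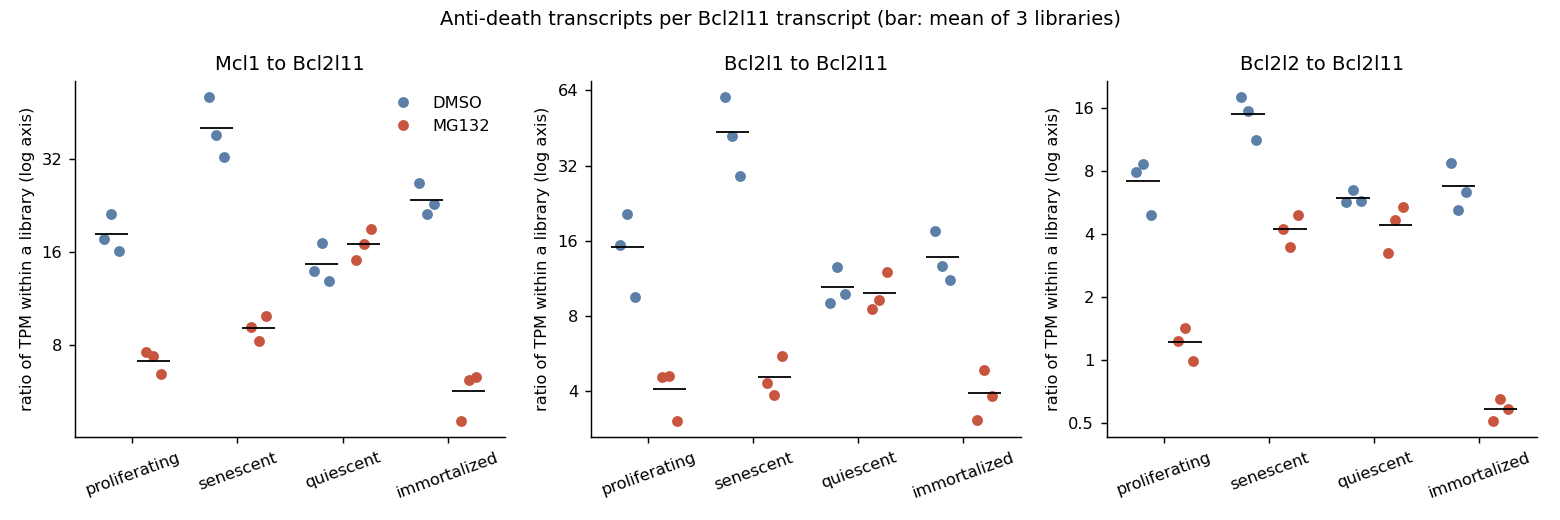
Ratio of Mcl1, Bcl2l1 and Bcl2l2 to Bcl2l11 in TPM within each library (y axis, log scale), by cell-state and treatment; points are libraries and bars means of 3. Treated libraries lie below untreated ones in the proliferating, senescent and immortalized cells and among them in quiescent cells for Mcl1 and Bcl2l1, with Bcl2l2 to Bcl2l11 at 0.51 to 0.65 in immortalized MG132 libraries.

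Against the effectors the ratios took other courses. Mcl1 to Bak1 was 0.588, 0.654 and 0.716 in immortalized DMSO libraries and 1.85, 1.78 and 1.90 under MG132, and it went from a mean of 0.704 to 1.30 in proliferating cells and from 0.672 to 0.991 in quiescent cells. In senescent cells it was 1.08 ± 0.12 and 0.916 ± 0.080, with libraries overlapping. Bcl2l1 to Bak1 in immortalized cells likewise went from 0.376 ± 0.023 to 1.27 ± 0.13, and in senescent cells it went the other way, from 1.14 ± 0.08 to 0.454 ± 0.006. Against the other effector, Bok, both ratios were higher under MG132 in immortalized cells as well, with Mcl1 to Bok at 1.17 ± 0.17 and 2.14 ± 0.32. In senescent cells Mcl1 to Bok was 2.11, 3.17 and 3.73 under DMSO and 4.19, 5.04 and 3.36 under MG132, so the libraries overlapped. In quiescent cells Bcl2l1 to Bok was lower under MG132, from 1.47, 1.27 and 1.62 to 0.993, 1.10 and 1.12, while Bcl2l1 to Bak1 was higher, from 0.478 ± 0.005 to 0.573 ± 0.021.

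A single balance of anti-death against pro-death members depended on how it was summed. As the mean log2 level of the 4 anti-death members minus that of the 6 pro-death members, it went from 0.85 ± 0.28 to 0.33 ± 0.03 with MG132 in proliferating cells, from 1.27 ± 0.09 to 0.59 ± 0.03 in senescent cells, from 0.61 ± 0.07 to 0.61 ± 0.09 in quiescent cells and from 0.34 ± 0.09 to 0.24 ± 0.05 in immortalized cells (SD, n = 3). As the log2 ratio of summed TPM, in which Bak1, Mcl1 and Bcl2l1 weigh most, MG132 changed it by 0.15, -0.51, 0.17 and 0.88 in the same order, so the sign turned in proliferating and immortalized cells. In immortalized cells, however, the mean log2 summary overlapped between libraries, at 0.247 to 0.424 under DMSO and 0.174 to 0.274 under MG132. That summary gives Bmf, which did not pass the filter, the same weight as any other pro-death member. The sums behind the ratio were 144.1 ± 11.8 anti-death and 235.6 ± 12.5 pro-death TPM in immortalized DMSO libraries, and 110.9 ± 4.0 and 98.7 ± 3.9 under MG132. Only in senescent cells did both summaries fall, with the sums at 243.0 ± 14.5 and 174.0 ± 9.6 TPM under DMSO and 151.6 ± 2.4 and 155.2 ± 6.8 under MG132. Both summaries cover only the 10 named members, and other BCL2 family genes, Bbc3 among them, were left out. A balance over other genes could differ. No test was made on either summary.

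**Figure D5:**
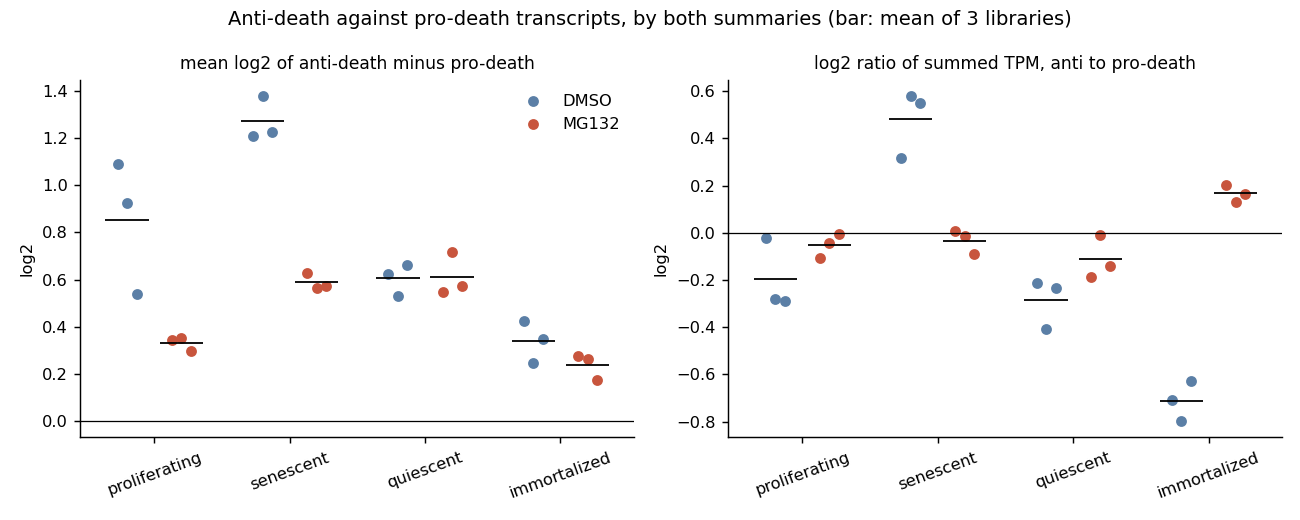
Anti-death against pro-death transcripts in each library, as the difference of mean log2 levels (left, y axis in log2) and as the log2 ratio of summed TPM (right, y axis in log2); points are libraries and bars means of 3. In immortalized cells the left panel goes from a mean of 0.34 to 0.24 with MG132, with libraries overlapping. The right panel crosses 0 upwards there, a change of 0.88.

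Genes around the family were read from lists of their roles. Their counts after scaling stand beside the shares of all genes that rose and fell under MG132, which were 25.2% and 24.8% in proliferating cells, 22.7% and 23.4% in senescent cells, 25.3% and 26.9% in quiescent cells and 26.6% and 26.6% in immortalized cells, with medians of all genes between -0.03 and 0.01. Counts with TPM as deposited have another background. Of 13489 genes, 1131 rose and 7182 fell in proliferating cells as deposited, and 2972 and 3236 in senescent cells. In quiescent cells these were 2419 and 4772, and in immortalized cells 1031 and 7626. Of 15 other BCL2 family genes 11 were in the table and 8 were tested. In senescent cells none of the 8 rose and 5 fell (22.7% and 23.4% of all genes), with a median of -0.52. In proliferating cells 3 rose and 3 fell (median 0.18), and in quiescent cells 2 and 3 (median -0.20), or 2 and 4 in each with TPM as deposited. In immortalized cells 4 rose and 2 fell (median 0.26), but 2 rose and 5 fell with TPM as deposited (median -0.49). Bbc3, which encodes the BH3-only protein PUMA, went from 76.0 ± 12.1 to 14.4 ± 1.3 deposited TPM in quiescent cells (SD, n = 3), where it fell by 2.12 on the log2 scale (SE 0.21, limma adjusted p = 2e-07). Bbc3 fell by 1.84 in senescent and by 0.89 in proliferating cells, and its difference in immortalized cells was 0.05 ± 0.21, or -0.68 with TPM as deposited. Bcl2l12 fell in all 4 states and under all 3 scalings, most in immortalized cells (-1.81 ± 0.18) and least in senescent cells (-0.61 ± 0.18).

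Downstream of the membrane stand 10 apoptosome and caspase genes. Of these, 1 rose and 6 fell in quiescent cells (25.3% and 26.9% of all genes) and none rose and 3 fell in senescent cells (22.7% and 23.4%), with medians of -0.41 and -0.23. In immortalized cells 2 rose and 6 fell, or 0 and 8 with TPM as deposited, and in proliferating cells 2 and 4, or 0 and 8. Casp9, the initiator caspase of this pathway, went from 15.1 ± 0.9 to 7.09 ± 1.02 TPM in quiescent cells (-0.82 ± 0.12, limma adjusted p = 1.7e-05). Casp9 and Casp2 fell in all 4 states and under all 3 scalings. Of 7 inhibitor-of-apoptosis genes and their antagonists, 0 rose and 3 fell in quiescent cells (25.3% and 26.9% of all genes, median -0.72) and 2 rose and 1 fell in senescent cells (22.7% and 23.4%, median -0.11). In proliferating cells 1 rose and 3 fell (median -0.72) and in immortalized cells 0 and 4 (median -0.64), or 0 and 6 in each with TPM as deposited. Birc3, an inhibitor of apoptosis, rose by 0.50 ± 0.15 in senescent cells and fell in the other 3 states, with the largest difference in immortalized cells, from 5.58 ± 0.98 to 1.06 ± 0.38 TPM.

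The list of 10 measured genes that control turnover of the family proteins had 4 higher and 1 lower in senescent cells (22.7% and 23.4% of all genes, median 0.28) and 2 and 1 in quiescent cells (25.3% and 26.9%, median 0.14), the latter 1 and 3 with TPM as deposited. In proliferating cells it had 3 and 2, or 0 and 6 with TPM as deposited. It had 4 higher and 3 lower in immortalized cells after scaling, but 1 and 6 with TPM as deposited. Fbxw7, a ubiquitin ligase subunit that recognizes MCL1, went from 7.98 ± 1.51 to 15.2 ± 2.5 TPM in senescent cells, a rise of 0.86 ± 0.13 (limma adjusted p = 2.5e-05). Of 19 binding partners 8 rose and none fell in quiescent cells (25.3% and 26.9% of all genes, median 0.04), or 6 and 4 with TPM as deposited, and 5 rose and 5 fell in senescent cells (22.7% and 23.4%, median 0.08). In proliferating cells 5 rose and 3 fell and in immortalized cells 8 and 2, or 3 and 13 and 2 and 11 with TPM as deposited. Bag3, a co-chaperone that binds BCL2, rose by 2.92, 1.47, 1.94 and 3.54 in proliferating, senescent, quiescent and immortalized cells, and Becn1, which carries a BH3 domain, by 0.90, 0.53, 0.87 and 1.22, all of them under all 3 scalings.

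The 15 transcription regulators had 5 higher and 2 lower in senescent cells (22.7% and 23.4% of all genes) and 6 and 4 in quiescent cells (25.3% and 26.9%), with medians of 0.02 and 0.25. In proliferating cells they had 6 and 2 and in immortalized cells 5 and 2, or 3 and 8 in each with TPM as deposited. Ddit3, which encodes the stress factor CHOP, rose by 1.67, 2.31, 1.76 and 2.52 in proliferating, senescent, quiescent and immortalized cells, under all 3 scalings. Foxo3, whose protein can bind FOXO motifs, fell by 0.63 in quiescent cells and passed in no other state after scaling, but with TPM as deposited it also passed in proliferating and immortalized cells, at -0.76 and -0.96. Of 13 kinases that act on the members 3 were higher and 9 lower in immortalized cells (26.6% and 26.6% of all genes, median -0.35), or 0 and 11 with TPM as deposited. In senescent cells 3 were higher and 4 lower (22.7% and 23.4%), in quiescent cells 3 and 4 (25.3% and 26.9%) and in proliferating cells 1 and 5 (25.2% and 24.8%), the last 0 and 12 with TPM as deposited. Prkaca, a kinase that phosphorylates BAD, fell by 1.01, 0.74, 1.02 and 0.81 in the same order of states, under all 3 scalings.

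Over the 24 libraries the gene most like Bcl2l11 in level, among 7682 other genes of at least 10 TPM on average, on the log2 scale, was Hspa5, the ER chaperone BiP, at a Pearson r of 0.97. Bcl2l2 was most like Pard6g (0.96), Bok like Trmt61a (0.95), Bid like Fosl1 (0.94), Bak1 like Polr1e (0.93), Bcl2l1 like Tmeff1 and Mcl1 like Sphk1 (0.92 each), Bcl2 like Ddr1 (0.92) and Bad like Trappc6b (0.89). These points share groups of 3 libraries and 1 set of scaling factors, so r is a description only. Within the family the nearest pair was Bcl2l2 and Bad (0.62), and Bcl2 and Bcl2l11 ran most against each other (-0.77).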

How the data were processed

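RNA-seq was read from 24 libraries of mouse tail fibroblasts, 8 groups of 3 by cell-state and treatment, as the labels give them. The deposited values are TPM: per the study's methods the authors trimmed reads with Cutadapt, quantified them with kallisto against Ensembl mouse transcripts (GRCm38) with ERCC spike-ins, normalized on the spike-ins with RUVg and scaled to TPM. In the submitters' processing notes stand HISAT2, StringTie, edgeR, FastQC and cutadapt. Which of the pipelines gave the deposited table is not stated in the sources used here. TPM keep no read depth, so depth per library is unknown and no counting interval is given. The authors scaled each library to the same total.

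TPM were divided by a median-of-ratios factor, taken over 13243 genes above 0 in every library, and fitted as log2(value + 1) with limma 3.58.1 (R 4.3.3, mean-variance trend, 8 groups, 16 residual degrees of freedom) on 13489 genes of at least 1 TPM in at least 3 libraries. Benjamini-Hochberg adjustment ran within each of 16 comparisons, with a threshold of 0.05. The fit was tested on simulated data. Low values in a library were whole multiples of a step, from which the authors' factor to the fixed total was recovered and undone as an alternative. Other alternatives were TPM as deposited, pseudocounts of 0.1 and 5, no filter, a minimum of 5 TPM, fits on only the compared groups, a replicate block, no trend, array weights and each library left out. Promoters and motifs came from RefSeq (GRCm38.p6), gene positions from GENCODE on GRCm38, the build of the study's annotation. The members and gene lists were chosen with earlier results of these data known. All 10 members are named; from each further list the text draws on the 2 largest rises and the 2 largest falls by mean MG132 response among genes that passed in at least 1 cell-state, not all of which are printed, and for each tested member it names the gene of highest correlation. The result for 1 further gene of these lists is not reported here.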

Additional observations from a re-analysis of the deposited data

Results flagged for a closer look

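These MG132 responses differed between cell-states by the limma test of the difference itself, given as log2, first state minus second, with n = 3 libraries in each group. For Bcl2l1 the difference was -1.29 for senescent minus proliferating, 0.82 for immortalized minus proliferating, 1.75 for quiescent minus senescent and 2.11 for immortalized minus senescent. For Bcl2l11 it was -1.17 for quiescent minus proliferating, -1.05 for quiescent minus senescent, 0.79 for immortalized minus senescent and 1.84 for immortalized minus quiescent. For Mcl1 it was -0.72 for senescent minus proliferating, 0.98 for quiescent minus senescent and 0.80 for immortalized minus senescent.

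For Bcl2l2 the responses differed by 0.74 for senescent minus proliferating, 0.73 for quiescent minus proliferating, -0.88 for immortalized minus senescent and -0.88 for immortalized minus quiescent. For Bcl2 they differed by 0.63 for quiescent minus proliferating and by 0.74 for quiescent minus senescent. Bak1 responses differed by 0.40 for senescent minus proliferating, 0.59 for quiescent minus proliferating, -0.52 for immortalized minus proliferating, -0.92 for immortalized minus senescent and -1.11 for immortalized minus quiescent. Bok responses differed by -0.94 for senescent minus proliferating, 1.58 for quiescent minus senescent and -1.16 for immortalized minus quiescent, and Bid responses by 0.69 for quiescent minus senescent and -0.93 for immortalized minus quiescent. The senescent minus proliferating differences of Mcl1 and Bok and the immortalized minus senescent differences of Mcl1 and Bcl2l11 did not pass with TPM as deposited, nor with the scaling step undone. The Bcl2 difference for quiescent minus proliferating passed in 2 of 24 fits with 1 library left out, and the Bak1 difference for senescent minus proliferating in 10 of 24.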

How the results depend on the processing

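Of 144 member comparisons 79 passed, and 64 of those also passed with each of the 24 libraries left out in turn. Between 11.6% and 60.1% of all genes passed in the 16 comparisons. No share of all genes is given for the fits with a library left out, so these counts are not a result about the family. Over 4880 alternative values 4631 kept direction and side of the threshold, 136 lost and 104 gained a call and 9 reversed; 74 further sign changes were between values that did not pass under either setting. The 9 reversals were all of MG132 responses under another scaling: in proliferating cells Mcl1 at -0.22 as deposited and -0.17 with the step undone, Bok at -0.46 and -0.41, and Bid at -0.13 and -0.075; in immortalized cells Mcl1 at -0.31 and -0.21, and Bcl2l1 at -0.061 as deposited. Only for Mcl1 with TPM as deposited did both values pass. The Bok values passed only under the other scalings, and the remaining ones only after the median-of-ratios scaling. TPM as deposited and the step undone also move the median of all genes in those states, and the cause was not tested.

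The counts in this paragraph have no share of all genes under the same setting beside them, so they describe the calls and not the family. Counts of members passing under DMSO moved by over 1.5 times as follows. Senescent minus proliferating went from 5 to 3 with only the libraries compared and 8 with array weights, quiescent minus proliferating from 5 to 2 and 8, and immortalized minus senescent from 8 to 5 with only the libraries compared. Immortalized minus quiescent went from 3 to 5 as deposited, 5 with the filter at 5 TPM and 6 with array weights. For response differences, senescent minus proliferating went from 5 to 3 under either other scaling, quiescent minus proliferating from 4 to 8 under either and 7 with array weights, immortalized minus proliferating from 2 to 4 as deposited, 1 with only the libraries compared and 5 with array weights, and immortalized minus senescent from 5 to 8 with array weights. With libraries left out, quiescent minus senescent under DMSO ranged from 3 to 6 (3 without quiescent DMSO replicate 3), immortalized minus quiescent from 2 to 6 (6 without proliferating DMSO replicate 3), and the response difference of immortalized minus proliferating from 2 to 4 (4 without proliferating DMSO replicate 3).

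The change of the anti-death minus pro-death level with MG132 was -0.52, -0.68, 0.01 and -0.10 (proliferating, senescent, quiescent, immortalized). As the log2 ratio of summed TPM it was 0.15, -0.51, 0.17 and 0.88. In senescent cells it was -0.48 with a pseudocount of 5, and in immortalized cells -0.25 with a pseudocount of 0.1 and 0.091 with 5.

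The labels do not say whether replicate numbers pair the libraries. A pair correlation of same-numbered MG132 and DMSO libraries ran from -0.66 to 0.40. With 3 libraries in a group it cannot settle the pairing. With the replicate block the counts under MG132 were 6, 5, 4 and 6 in proliferating, senescent, quiescent and immortalized cells, and 4 member calls were lost: Bok under MG132 in immortalized cells (-0.40, limma adjusted p = 0.054), Bad under DMSO for senescent minus proliferating (0.051) and immortalized minus senescent (0.059), and the Bak1 response difference for senescent minus proliferating (0.055). It changed no other member call. Depth is unknown in TPM, and Bmf was too low to be tested.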
